A study of Homo sapiens with 6 samples.

Results

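The genes described here make, take up and move cholesterol, and were measured in IMR90 cells, a line of human lung fibroblasts, with and without the cytokine oncostatin M. The set was given as 34 gene symbols, which were grouped here in 3 roles, namely synthesis, regulators, and uptake and trafficking. A member was measured where at least 1 probe set carried its symbol and no other, and where a gene had several such probe sets, the brightest on average stood for it. By this rule 31 of the 34 members were measured among 18417 genes in all, with 16 in synthesis, 6 among the regulators and 9 in uptake and trafficking. HSD17B7, FDFT1 and NR1H2 were not analysed here.

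The study compared 3 samples treated with recombinant human oncostatin M at 10 ng/mL with 3 untreated control samples, each on 1 Affymetrix whole-transcript array. The cells are the same line in both groups, and no length of treatment is given in the sources used here. Separate cultures are not stated for the replicates, so the p-values reflect how far these samples scatter, which may be technical only. Levels are log2 RMA values of the deposited table, so a difference of 1 is a 2-fold change, and with 3 arrays a group their number limits the precision. These are bulk samples, in which fewer cells of a type and less RNA per cell cannot be told apart.

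Cells build cholesterol from acetyl-CoA through mevalonate, isoprenoids, squalene and lanosterol, and also take it up in lipoproteins that are emptied in lysosomes. When sterol in the endoplasmic reticulum runs low, SCAP carries the SREBP transcription factors, encoded by SREBF1 and SREBF2, to the Golgi for cleavage, and they then switch on the genes of synthesis and uptake. When sterol is plentiful, INSIG proteins hold SCAP back, and the liver X receptors (LXR) switch on genes of sterol export. Oncostatin M belongs with interleukin-6 and its relatives, and acts through receptors sharing gp130 and through JAK and STAT proteins.

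Among these genes, oncostatin M went with a higher level of NPC1, which moves cholesterol out of lysosomes, and a lower level of STARD4, which carries it through the cytosol. NPC1 was 2.14-fold higher and STARD4 1.92-fold lower in oncostatin M than in control cells, and the adjusted p (limma, Benjamini-Hochberg over all 18417 genes) was under 0.05 for these 2 of 31 members. The threshold of 0.05 called 1.70% of all genes lower and 1.72% higher. Of the 16 enzymes of synthesis, 15 had a difference below 0, with a median of -0.165 on the log2 scale, but 0 passed the test (limma), and 7 had an unadjusted p under 0.05, all lower. Over all genes 6.66% were lower and 4.98% higher at that unadjusted level, and the median difference was 0.000574. For the 29 members that were not called, the 95% intervals of the difference ran no lower than -0.84 (MSMO1) and no higher than 0.42 (MYLIP), so none of them reached a 2-fold difference.

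**Figure D1:**
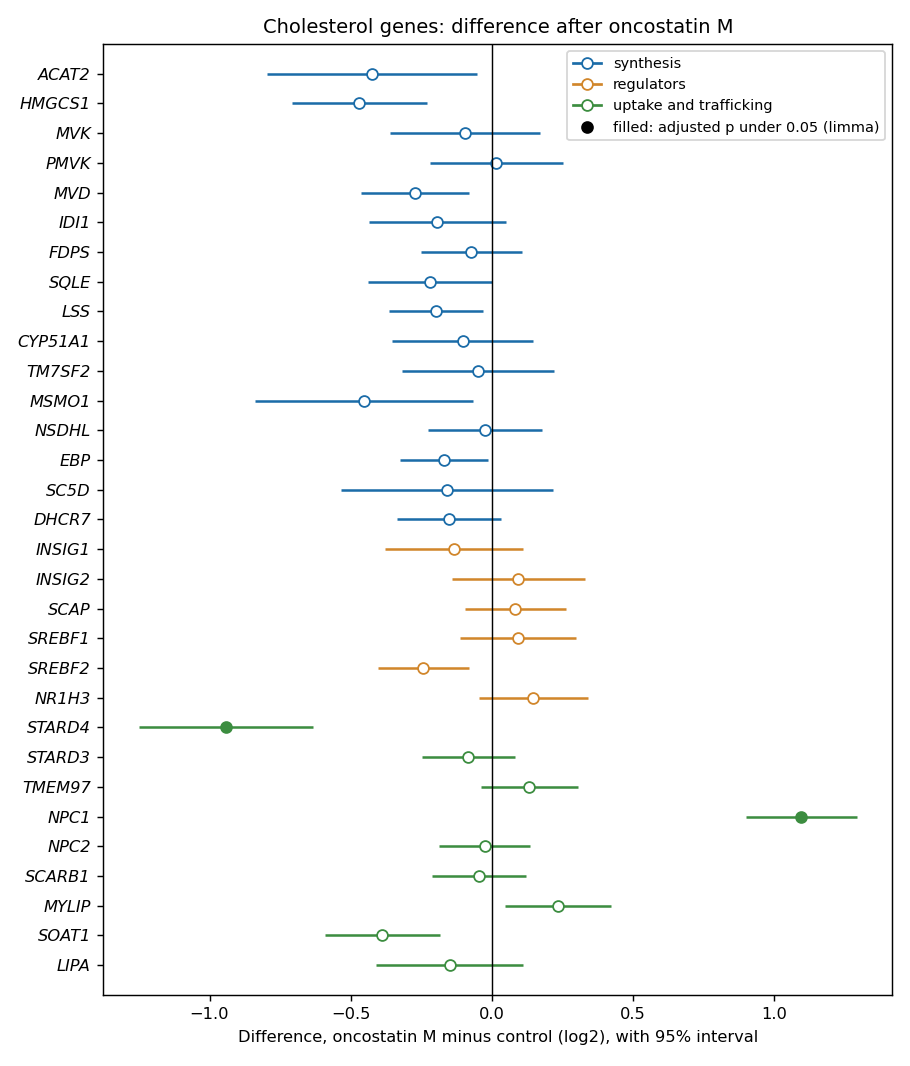
Difference in log2 level, oncostatin M minus control, of the 31 measured members (points) with 95% intervals from limma (lines), coloured by role, n = 3 arrays a group. Filled points mark the 2 genes past the adjusted threshold, NPC1 at 1.095 and STARD4 at -0.94, and 15 of the 16 synthesis genes lie left of 0.

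Promoters are shown for STARD4 and NPC1, because they were called, and for SREBF2. SREBF2 is the only one of the 28 members in the RefSeq promoter table whose windows hold the sterol regulatory element as spelled here. Each window runs 5′ to 3′ on the gene's strand from 250 bases before the start to the first 50 bases after it (GRCh38.p14, credited to RefSeq). Capitals mark matches on either strand to any of the 4 motifs searched, which were TCACNCCAC (the sterol regulatory element to which SREBPs bind), CCAAT (bound by NF-Y), GGGCGG (a GC box, bound by SP factors) and CACGTG (an E-box).
SREBF2, chr22:41832855-41833154, plus strand: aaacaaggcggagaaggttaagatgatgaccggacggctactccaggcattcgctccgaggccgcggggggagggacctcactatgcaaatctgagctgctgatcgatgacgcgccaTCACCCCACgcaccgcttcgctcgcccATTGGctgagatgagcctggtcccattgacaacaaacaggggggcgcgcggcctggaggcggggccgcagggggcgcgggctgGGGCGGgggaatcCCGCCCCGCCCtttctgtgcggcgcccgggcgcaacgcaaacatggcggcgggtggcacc
STARD4, chr5:111512486-111512785, minus strand: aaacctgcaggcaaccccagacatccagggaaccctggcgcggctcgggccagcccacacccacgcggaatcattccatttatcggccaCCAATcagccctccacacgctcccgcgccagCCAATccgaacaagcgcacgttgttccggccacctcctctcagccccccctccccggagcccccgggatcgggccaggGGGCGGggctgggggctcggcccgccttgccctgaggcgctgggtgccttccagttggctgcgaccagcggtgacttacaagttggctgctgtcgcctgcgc
NPC1, chr18:23586457-23586756, minus strand: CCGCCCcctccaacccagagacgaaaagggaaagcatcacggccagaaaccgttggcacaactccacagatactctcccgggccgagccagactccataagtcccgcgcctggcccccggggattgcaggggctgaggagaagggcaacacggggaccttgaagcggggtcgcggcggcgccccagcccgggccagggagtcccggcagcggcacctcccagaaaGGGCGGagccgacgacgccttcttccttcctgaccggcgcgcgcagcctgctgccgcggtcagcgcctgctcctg
The element in SREBF2 reads TCACCCCAC at positions -133 to -125, where the start base is 1 and the base before it is -1. The STARD4 window holds CCAAT at -161 to -157 and at -130 to -126, with a GC box at -52 to -47. The NPC1 window holds only GC boxes, at -250 to -245 and -25 to -20, and 2 of the 3 GC boxes in the SREBF2 window share a base.

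Over all genes of the promoter table, 1.39% had a window with TCACNCCAC, against 3.57% of the members, which is 1 of 28. CCAAT stood in 75% of members and 39.7% of all genes, GGGCGG in 96.4% and 48.3%, and CACGTG in 14.3% and 8.77%. The members with CACGTG were INSIG1, LSS, SC5D and SCAP. These shares describe letters in short windows, and a gene with several listed starts had several windows. The promoter table holds 27305 genes, more than the 18417 measured, and these were not matched to the members in level. The part of this in the gaps was not tested.

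The treatment and the cells were checked first. SOCS3, a feedback inhibitor that STAT proteins induce, had levels of 9.58, 9.70 and 9.63 in oncostatin M cells, against 7.54, 7.62 and 7.59 in control cells, and rose by 2.06 (limma adjusted p = 1.25e-05). OSMR, a receptor chain for oncostatin M that pairs with gp130, rose by 0.82 (limma adjusted p = 0.000641). All 10 fibroblast markers, collagens among them, lay above the level that 95% of 409 olfactory receptor and keratin-associated genes stayed under, 6.77 in oncostatin M and 6.74 in control cells. These genes are taken as silent here. Above that bound lay 2 of 8 epithelial markers in both groups, KRT8 (7.74 in oncostatin M, 7.76 in control) and KRT18 (9.50 and 8.98), and 1 of 6 endothelial markers, CLDN5 (7.06 and 6.96). Of 6 leukocyte markers, 2 in oncostatin M and 1 in control cells lay above it, CD68 (10.65 and 10.67) in both groups and CD14 (7.83 and 6.39) in oncostatin M cells only. The other epithelial, endothelial and leukocyte markers lay in the silent range, EPCAM (4.86 and 4.71), PECAM1 (4.85 and 4.83) and PTPRC (3.86 and 3.83) among them. Among the markers, 4 rose (limma): the fibroblast genes LUM by 0.75 and PDGFRA by 0.39, the keratin KRT18 by 0.52 and CD14, a myeloid marker, by 1.44. The leukocyte list of 6 averaged 6.09 to 6.26 per array in oncostatin M and 5.88 to 5.90 in control cells, the epithelial list of 8 averaged 6.19 to 6.51 and 6.17 to 6.28, and their part in the results below was not tested. Of the 31 members, 30 lay above the silent bound in both groups.

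Synthesis opens with acetyl-CoA units. ACAT2, the thiolase that joins acetyl-CoA units, had levels of 7.86, 8.25 and 8.39 in oncostatin M cells, against 8.42, 8.50 and 8.86 in control cells. The groups do not overlap, but oncostatin M replicate 1 lies well under the others and control replicate 3 well above, and the difference of -0.42 ± 0.16 (SE) had an adjusted p of 0.323. HMGCS1, the synthase that makes HMG-CoA, had levels of 8.30, 8.38 and 8.58 in oncostatin M cells, against 8.75, 8.87 and 9.04 in control cells. All 3 treated arrays lie under all 3 control arrays. The means were 8.42 ± 0.14 and 8.89 ± 0.15 (SD, n = 3 each), and the difference of -0.47 ± 0.10 (SE, 95% interval -0.71 to -0.23) was the lowest of the 16 enzymes. Its adjusted p of 0.0542 missed the threshold, and HMGCS1 passed it under 5 of 15 alternative settings, with adjusted p between 0.027 and 0.195.

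The kinases of mevalonate had overlapping groups. MVK, which phosphorylates mevalonate, differed by -0.09 (adjusted p = 0.924), and PMVK, which adds the next phosphate, by 0.02 (adjusted p = 0.99), the only enzyme of synthesis with a difference above 0. MVD, the decarboxylase that yields isopentenyl diphosphate, had levels of 8.41, 8.34 and 8.44 in oncostatin M cells, against 8.55, 8.79 and 8.66 in control cells. Its groups do not overlap, and the difference was -0.27 ± 0.08 (SE, adjusted p = 0.175). IDI1, the isomerase of that product, differed by -0.19 (adjusted p = 0.603). FDPS, which makes farnesyl diphosphate, differed by -0.07 (adjusted p = 0.897). A further 2 probe sets, annotated to both FDPS and FDPSP2, were not used, and whether the FDPS probe set also reads FDPSP2 was not tested.

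In the squalene and lanosterol steps the differences lay between -0.22 and -0.05. SQLE, the squalene epoxidase, had levels of 10.35, 10.57 and 10.65 in oncostatin M cells, against 10.72, 10.68 and 10.83 in control cells, a difference of -0.22 ± 0.10 (SE, adjusted p = 0.426). LSS, which closes squalene epoxide to lanosterol, had levels of 9.07, 9.07 and 9.14 in oncostatin M cells, against 9.20, 9.31 and 9.35 in control cells, a difference of -0.20 ± 0.07 (SE, adjusted p = 0.295). In both genes the groups stay apart, but by less than the range within either group. CYP51A1, the lanosterol demethylase, differed by -0.10 (adjusted p = 0.89), and its other probe set by -0.0881. TM7SF2, a sterol reductase, differed by -0.05 (adjusted p = 0.971).

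The late enzymes that trim lanosterol to cholesterol ranged from MSMO1 to NSDHL. MSMO1, a methylsterol oxidase, had levels of 9.74, 10.09 and 10.30 in oncostatin M cells, against 10.49, 10.23 and 10.76 in control cells. The groups overlap, since oncostatin M replicate 3 lies above control replicate 2, and the difference of -0.45 ± 0.17 (SE) had an adjusted p of 0.306. NSDHL, which acts with MSMO1 on the same methyl groups, differed by -0.02 (adjusted p = 0.981). EBP, the sterol isomerase, had levels of 8.22, 8.33 and 8.32 in oncostatin M cells, against 8.45, 8.47 and 8.46 in control cells, without overlap, a difference of -0.17 ± 0.07 (SE, adjusted p = 0.369). SC5D, the sterol desaturase, differed by -0.16 (adjusted p = 0.887), and its groups overlap. DHCR7, a reductase of the last step, had levels of 9.55, 9.73 and 9.72 in oncostatin M cells, against 9.75, 9.83 and 9.87 in control cells. That is a difference of -0.15 ± 0.08 (SE, adjusted p = 0.576) with no overlap.

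In all, the groups of 7 of the 16 synthesis enzymes did not overlap, each lower in oncostatin M cells, and 0 lay higher. Over all genes 10.6% were lower and 7.43% higher without overlap. The arrays were not alike in this. Measured from each gene's control mean, the median deviation of the 16 was -0.271, -0.135 and -0.12 in oncostatin M replicates 1, 2 and 3, against -0.075, -0.0164 and 0.0933 in the control replicates 1, 2 and 3. Oncostatin M replicate 1 was the lowest of the 6 arrays for 13 of the 16 enzymes, and control replicate 3 the highest for 10. Of all 18417 genes, oncostatin M replicate 1 was the lowest array for 5295 and the highest for 5553. Control replicate 3 was the highest for 3412. The median difference was -0.122, -0.188 and -0.202 without oncostatin M replicates 1, 2 and 3 in turn. It was -0.181, -0.175 and -0.121 without control replicates 1, 2 and 3 in turn. It was -0.106 with array weights, which gave oncostatin M replicate 1 a weight of 0.226 and the other arrays 0.723 to 3.22. With these weights 12 of the 16 differences were below 0.

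**Figure D2:**
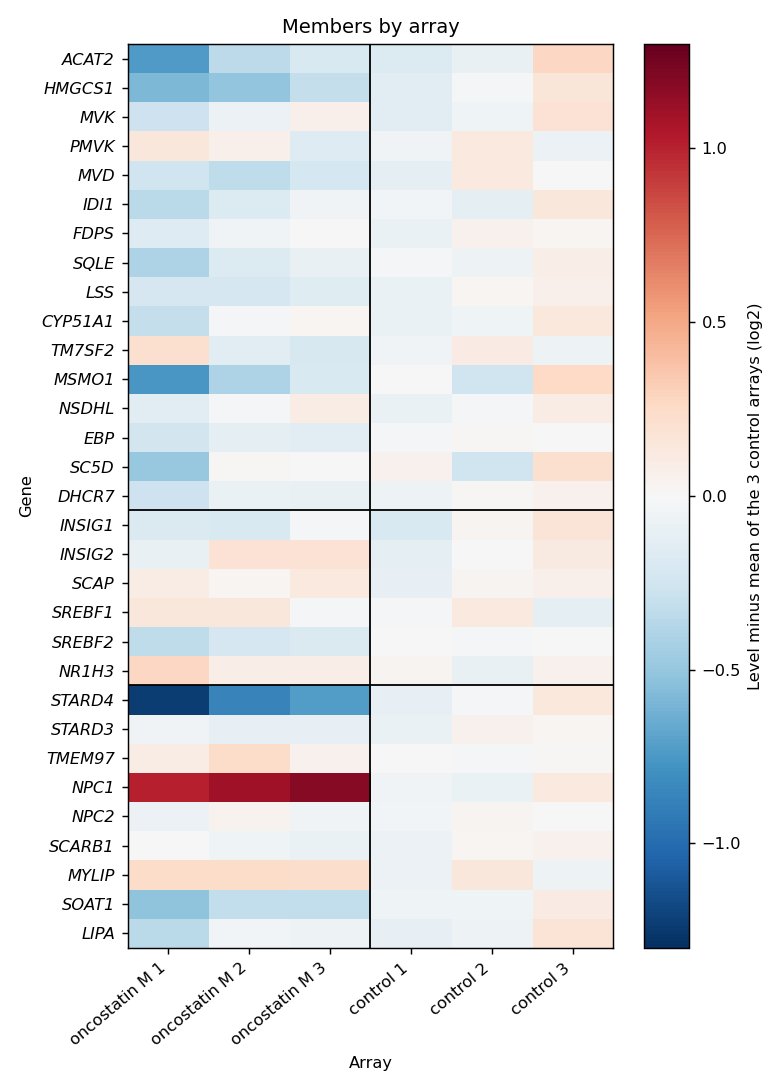
Each measured member's log2 level on each of the 6 arrays minus its mean over the 3 control arrays, with oncostatin M arrays on the left and synthesis, regulators, and uptake and trafficking from top to bottom. Blue is lower and red higher than the control mean. NPC1 and STARD4 stand out in all 3 oncostatin M arrays, and oncostatin M replicate 1 is the lowest array for 13 of the 16 synthesis genes.

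The regulators showed no called change, since 0 of 6 passed the test (limma), and 1 had an unadjusted p under 0.05. That gene was SREBF2, whose product is the SREBP that mainly drives cholesterol genes. It had levels of 8.87, 8.99 and 9.01 in oncostatin M cells, against 9.20, 9.19 and 9.21 in control cells. The control arrays almost coincide, with an SD of 0.0094, and all 3 treated arrays lie below them. The difference was -0.24 ± 0.07 (SE, 95% interval -0.40 to -0.08), with an adjusted p of 0.142. SREBF1, which mainly drives fatty acid genes, differed by 0.09 (adjusted p = 0.87), with overlapping groups.

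The proteins that escort or hold back the SREBPs did not pass the test. SCAP, the escort, differed by 0.08 (adjusted p = 0.863). INSIG1 and INSIG2, which retain it, differed by -0.13 (adjusted p = 0.808) and by 0.09 (adjusted p = 0.903), and the groups overlap in each of these genes. NR1H3, the LXR alpha receptor, had levels of 6.38, 6.19 and 6.19 in oncostatin M cells, against 6.15, 6.02 and 6.17 in control cells. Both groups lie in the silent range, and the difference of 0.15 had an adjusted p of 0.638. The median difference of the 6 regulators was 0.088, with 2 of 6 below 0.

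Uptake and trafficking held both called members and the widest spread, with differences between -0.94 and 1.095 and a median of -0.0455. That median was -0.0842 without control replicate 1, -0.0273 without oncostatin M replicate 3, -0.029 without control replicate 3 and -0.0211 under quantile normalisation. NPC1, the sterol transporter of the lysosomal membrane, had levels of 10.58, 10.67 and 10.75 in oncostatin M cells, against 9.53, 9.49 and 9.70 in control cells. The groups are far apart relative to their spread, with means of 10.67 ± 0.09 and 9.57 ± 0.11 (SD, n = 3 each). NPC1 rose by 1.095 ± 0.09 (SE, 95% interval 0.90 to 1.29, limma adjusted p = 0.000539). It ranked 58 from the highest of 18417 differences and was called under 15 of 15 alternative settings at the same threshold, with adjusted p between 1.18e-05 and 0.0105.

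The lysosomal partners of NPC1 did not pass the test. NPC2, the soluble protein that hands cholesterol to NPC1, had levels of 10.79, 10.92 and 10.82 in oncostatin M cells, against 10.84, 10.91 and 10.86 in control cells. Its groups lie on top of each other, and the difference of -0.03 had a 95% interval of -0.19 to 0.14 and an adjusted p of 0.975. LIPA, the acid lipase that frees cholesterol from its esters in the lysosome, differed by -0.15 (95% interval -0.41 to 0.11, adjusted p = 0.794). STARD3, a tether that passes sterol between the endoplasmic reticulum and late endosomes, differed by -0.08 (adjusted p = 0.838). TMEM97, a membrane protein that binds NPC1, had levels of 9.13, 9.27 and 9.09 in oncostatin M cells, against 9.03, 9.02 and 9.05 in control cells. The treated arrays lie just above the control arrays, by a difference of 0.13 ± 0.07 (SE, adjusted p = 0.634).

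STARD4, a soluble carrier of sterol between membranes, had levels of 7.51, 7.88 and 8.01 in oncostatin M cells, against 8.63, 8.71 and 8.88 in control cells. Oncostatin M replicate 1 is the lowest, and the highest treated array is well below the lowest control array. The means were 7.80 ± 0.26 and 8.74 ± 0.13 (SD, n = 3 each). STARD4 fell by 0.94 ± 0.13 on the log2 scale (SE, 95% interval of the difference -1.25 to -0.63, limma adjusted p = 0.00725). It ranked 46 from the lowest difference and was called under 15 of 15 alternative settings, with adjusted p between 0.000839 and 0.0424.

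SOAT1, which esterifies cholesterol for storage in droplets, had levels of 9.67, 9.88 and 9.87 in oncostatin M cells, against 10.13, 10.14 and 10.30 in control cells. The groups do not overlap, and the difference of -0.39 ± 0.09 (SE) had an adjusted p of 0.0605, just outside the threshold. MYLIP, a ubiquitin ligase and LXR target that marks lipoprotein receptors for degradation, had levels of 7.73, 7.74 and 7.72 in oncostatin M cells, against 7.42, 7.64 and 7.43 in control cells. The treated arrays lie together above the control arrays, of which replicate 2 is nearest, and the difference of 0.23 ± 0.08 (SE) had an adjusted p of 0.254. SCARB1, a receptor for high-density lipoprotein, differed by -0.05 (95% interval -0.21 to 0.12, adjusted p = 0.951). Without overlap, 2 of the 9 genes lay lower (STARD4 and SOAT1) and 3 higher (NPC1, MYLIP and TMEM97), against 10.6% lower and 7.43% higher over all genes.

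**Figure D3:**
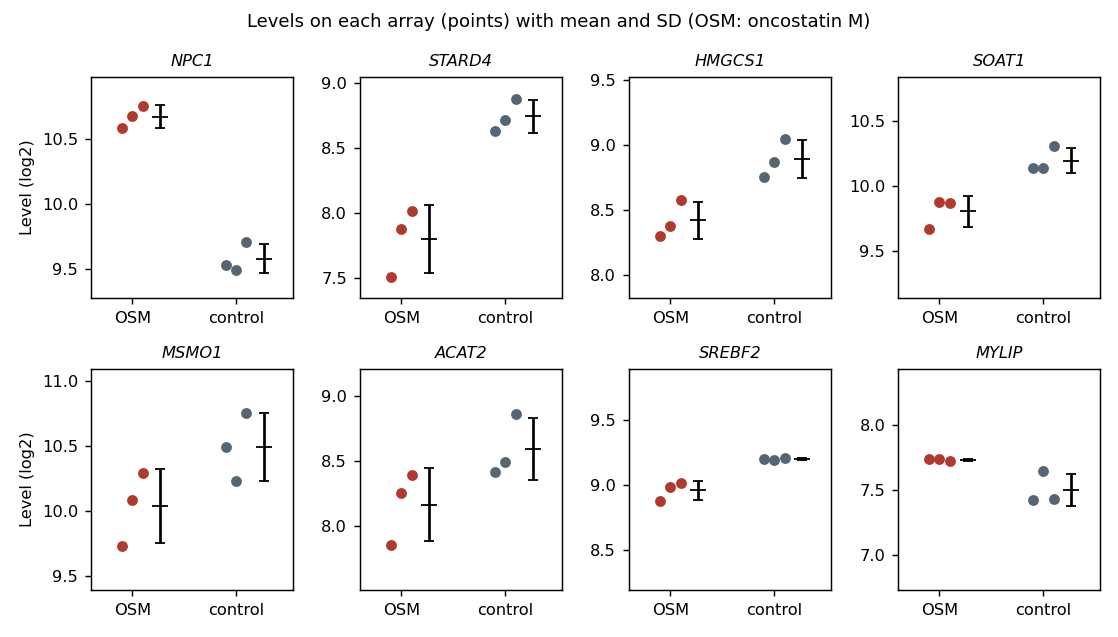
Log2 levels of 8 members on each array (points; oncostatin M left, control right) with the mean and SD of each group of 3 (bars), on axes of equal length that do not start at 0. NPC1 is higher and STARD4 lower in all oncostatin M arrays, HMGCS1, SOAT1, ACAT2 and SREBF2 are lower and MYLIP is higher without overlap and without passing the test, and MSMO1 overlaps.

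**Figure D4:**
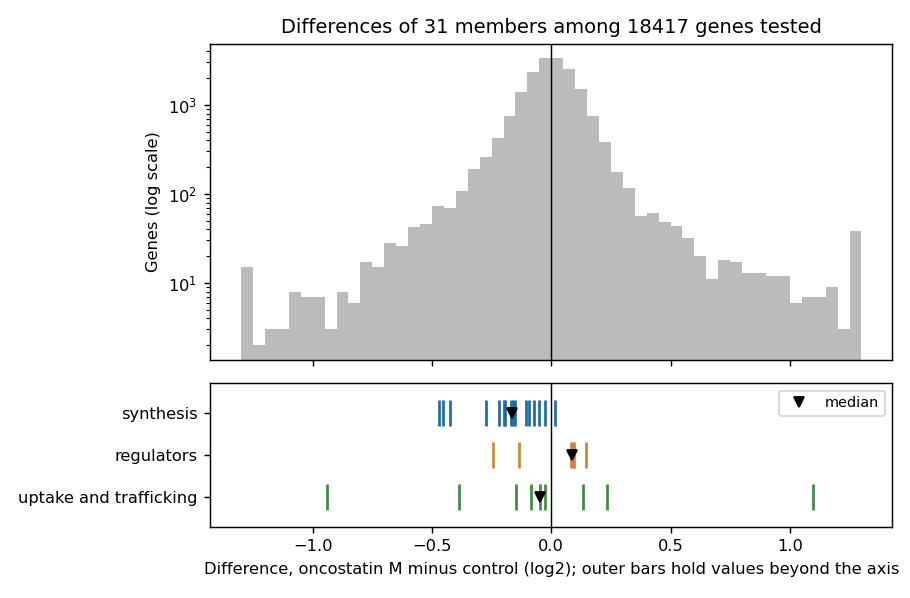
Top, number of genes (log scale) by log2 difference, oncostatin M minus control, for all 18417 genes. Bottom, the same difference for each member (ticks) by role, with medians (triangles) at -0.165 for synthesis, 0.088 for regulators and -0.0455 for uptake and trafficking. The synthesis genes lie between -0.47 and 0.02, and NPC1 and STARD4 lie in the tails.

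Genes around these members were read from further lists, and over all genes 1.70% were called lower and 1.72% higher. LXR targets, genes that oxysterol-bound LXR switches on, had 3 of 7 measured members called higher and 0 lower, with a median difference of 0.289. That median is the value of ABCG1, a gene in the silent range. It was 0.135 with array weights, 0.195 without control replicate 3 and 0.505 with dim genes left out. ABCA1, which exports cholesterol to apolipoproteins, had levels of 9.80, 9.84 and 9.74 in oncostatin M cells, against 8.82, 8.95 and 8.89 in control cells, and rose by 0.91 ± 0.07 (SE, limma adjusted p = 0.000551). LPCAT3, a phospholipid acyltransferase, had levels of 10.86, 10.93 and 10.90 in oncostatin M cells, against 10.06, 10.05 and 10.24 in control cells, and rose by 0.78 ± 0.08 (SE, limma adjusted p = 0.00143). In both, the treated arrays lie close together and well above the control arrays. SMPDL3A, a phosphodiesterase, rose by 0.50 ± 0.08 (SE, limma adjusted p = 0.0145), but its adjusted p was 0.0537 without oncostatin M replicate 2, 0.0957 without control replicate 1 and 0.0809 without control replicate 2. Of the other 4, ABCG1, a further sterol exporter, differed by 0.29 (adjusted p = 0.368) and the apolipoprotein APOC1 by 0.08 (adjusted p = 0.888), both in the silent range. The phospholipid transfer protein PLTP differed by -0.02 (adjusted p = 0.988) and RNF145, a ubiquitin ligase, by -0.14 (adjusted p = 0.608). The list does not hold every LXR target. MYLIP and SREBF1, LXR targets counted among the members, differed by 0.23 and 0.09 (limma adjusted p = 0.254 and 0.87). SCD, a desaturase and LXR target counted in the fatty acid list, differed by 0.007 (limma adjusted p = 0.995).

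Among 12 measured lipoprotein receptors and partners, 1 was called higher and 0 lower. VLDLR, which binds very-low-density lipoprotein, had levels of 9.20, 9.24 and 8.88 in oncostatin M cells, against 8.32, 8.51 and 8.07 in control cells, and rose by 0.81 ± 0.14 (SE, limma adjusted p = 0.0163). Replicate 3 is the lowest of each group. The adjusted p of VLDLR was 0.0533 without oncostatin M replicate 2, 0.0962 without control replicate 1 and 0.0516 without control replicate 3. Without oncostatin M replicate 1, and likewise with array weights, 3 receptors were called higher, with CD36 and LRP8 added, and with a replicate block SORL1 was called lower. CD36 (4.44 in oncostatin M, 4.10 in control) and SORL1 (6.29 and 6.73) lay in the silent range in both groups. Among 17 sterol transfer proteins, 1 was called lower and 0 higher. OSBPL3, an oxysterol-binding protein relative, had levels of 7.44, 7.66 and 7.93 in oncostatin M cells, against 8.27, 8.29 and 8.50 in control cells, and fell by 0.68 ± 0.13 on the log2 scale (SE, limma adjusted p = 0.0284). Its adjusted p lay between 0.082 and 0.116 when oncostatin M replicate 2 or any 1 of the control arrays was left out.

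**Figure D5:**
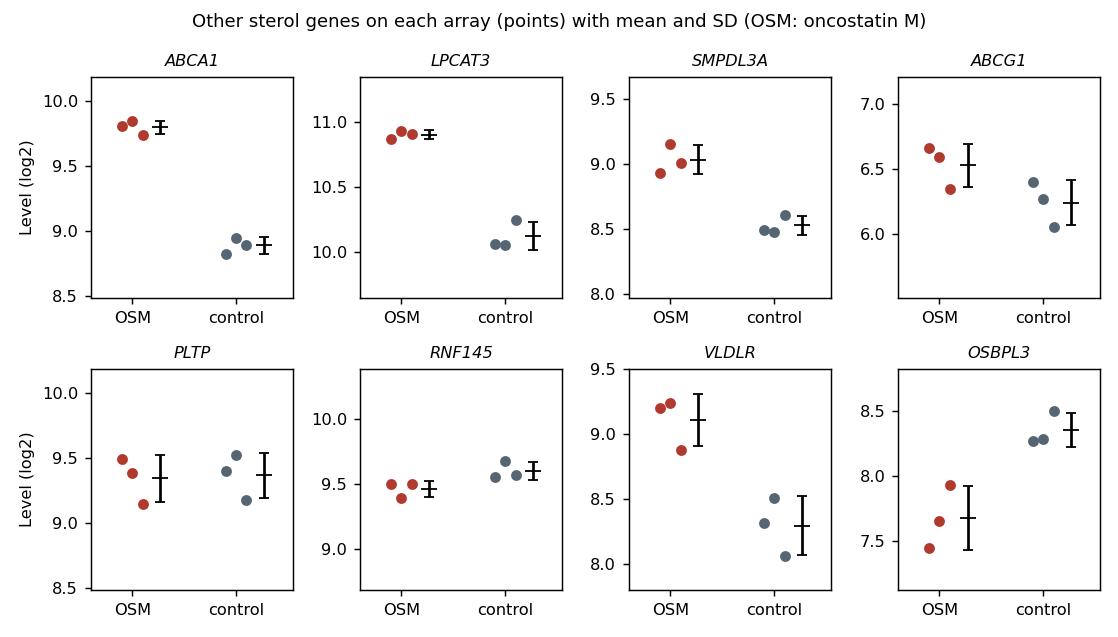
Log2 levels of 8 genes outside the member set on each array (points; oncostatin M left, control right) with the mean and SD of each group of 3 (bars), on axes of equal length that do not start at 0. ABCA1, LPCAT3, SMPDL3A and VLDLR are higher and OSBPL3 lower in oncostatin M arrays, ABCG1 and PLTP overlap, and RNF145 is lower without overlap and without passing the test.

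The remaining lists held no called gene in the fit to all 6 arrays without weights or a trend (limma). In the list of SREBP processing and sterol-regulated degradation, 0 of 13 passed and 0 had an unadjusted p under 0.05, and the largest difference was that of FBXW7, a ubiquitin ligase subunit, at -0.20 (adjusted p = 0.722). In fatty acid synthesis and desaturation, the branch that SREBF1 mainly drives, 0 of 15 passed and 1 had an unadjusted p under 0.05, and the median difference was -0.000477. That gene was ACLY, which makes cytosolic acetyl-CoA for both fatty acids and sterols, at 11.17, 11.24 and 11.26 in oncostatin M cells, against 11.41, 11.45 and 11.50 in control cells. Its difference was -0.23 (adjusted p = 0.164, and 0.028 with an eBayes trend), without overlap. In the isoprenoid branch 0 of 14 passed and 0 had an unadjusted p under 0.05, with COQ2, an enzyme of ubiquinone synthesis, the farthest from 0 at 0.18 (adjusted p = 0.755). Among the oxysterol and ester enzymes 0 of 9 passed and 3 had an unadjusted p under 0.05. Of these, 1 was lower and 2 higher, against 6.66% lower and 4.98% higher over all genes. CYP39A1, among the genes higher at that level, lay in the silent range (4.12 in oncostatin M, 3.93 in control). Of the 9, 3 lay above the silent bound in both groups and 5 in neither. NCEH1, a hydrolase of cholesterol esters, differed most, by -0.42 (adjusted p = 0.108), and was called with an eBayes trend (adjusted p = 0.0392) and without oncostatin M replicate 3 (adjusted p = 0.0442). EBPL, a relative of EBP, was called higher with an eBayes trend and with array weights.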

How the data were processed

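Total RNA of 6 IMR90 samples, 3 with oncostatin M and 3 untreated, was hybridised to Affymetrix whole-transcript arrays, and the labels gave each sample's group and replicate number. The authors deposited log2 values, 1 per probe set and array, and the submitters' processing notes name RMA and Affymetrix Expression Console 1.1 without settings. RMA corrects background, aligns the arrays and summarises probes, and tends to shrink differences at low intensity. Array medians lay between 6.54 and 6.66. Over all 33297 probe sets, any pair of arrays correlated at 0.989 to 0.997, and none was a copy of another.

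Of 33297 probe sets, 19460 carried 1 gene symbol in the platform's annotation, 1754 several and 12083 none. For each of 18417 genes the probe set with the highest average over all 6 arrays was used, with a choice for 769 genes and, among the members, for CYP51A1. Oncostatin M and control were compared in limma 3.58.1 (R 4.3.3) by a moderated two-sided test with no covariate, first tested on simulated data, with p-values adjusted by Benjamini-Hochberg over all genes and a threshold of 0.05, and figures were drawn with matplotlib 3.10.9. The members and lists were chosen with earlier results of these data known, so no list was tested, and counts and medians are descriptions. All members were named, with, from each other list, up to 3 called genes with the largest changes or, where none was called, the gene with the largest change. ABCG1, APOC1, PLTP and RNF145 were named to complete the LXR list, and the markers, CD36, LRP8, SORL1, EBPL, CYP39A1 and SCD after their values were seen. Alternatives were quantile normalisation, subtraction of array medians, other probe set choices, leaving out dim genes, eBayes with a trend or robust, array weights, a replicate block, thresholds of 0.01 and 0.1, and leaving out each array.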

Additional observations from a re-analysis of the deposited data

How the results depend on the processing

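NPC1 and STARD4 kept their direction and their call under all 15 alternatives run at the threshold of 0.05, and with a threshold of 0.01 both were still called. The number of synthesis genes called lower was 0 and became 1, HMGCS1, under quantile normalisation, with dim genes left out, with an eBayes trend, with a threshold of 0.1 and with a replicate block (adjusted p = 0.0339 there), and it ranged from 0 to 1 when arrays were left out in turn. The number of uptake and trafficking genes called lower was 1 and became 2, with SOAT1 added, under quantile normalisation, with dim genes left out, with an eBayes trend, with array weights and with a threshold of 0.1, and the number called higher became 2 with array weights, with MYLIP added. When arrays were left out, the median of synthesis ranged from -0.202 to -0.121. That of the regulators then ranged from 0.0326 to 0.097 and that of uptake and trafficking from -0.0842 to -0.0273. Some differences changed sign without passing the test, the largest of them that of SC5D, given above as -0.16. NSDHL was 0.000931 under quantile normalisation, and with array weights MVK was 0.0486, PMVK -0.0746, FDPS 0.00386, CYP51A1 0.0156 and NSDHL 0.0778. When arrays were left out, MVK ranged from -0.172 to 0.00125, PMVK from -0.0501 to 0.109, NSDHL from -0.0856 to 0.0354, SC5D from -0.291 to 0.00499, TM7SF2 from -0.176 to 0.0318 and NPC2 from -0.0626 to 0.00039. The cause of these shifts was not tested. Over all genes, 314 lower and 316 higher calls became 610 and 667 with array weights, 105 and 156 without control replicate 1, 127 and 188 without control replicate 2, 136 and 216 without control replicate 3, 179 and 217 without oncostatin M replicate 2, 465 and 407 with an eBayes trend, and 112 and 175 at a threshold of 0.01. Deviations from the group means correlated at 0.0635, -0.456 and 0.511 between same-numbered samples 1, 2 and 3. Between samples of unlike number they correlated at -0.605 to 0.543. With 3 arrays a group these correlations depend on one another, so they cannot decide whether the numbers pair the samples. The replicate block gave 223 lower and 255 higher calls, and SMPDL3A then had an adjusted p of 0.0508, SORL1 was called lower, and the other genes called in the member set and further lists were still called.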
